A study of Mus musculus with 2 samples.

Results

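The genes described here are 9 S100 calcium-binding protein genes, S100a1, S100a3, S100a4, S100a5, S100a6, S100a10, S100a11, S100a13 and S100a16, of 22711 genes listed in the deposited tables. They were chosen by name, with their FPKM levels and B6 shares in these same 2 libraries known, from 17 listed genes of the S100 family. Their levels are therefore a description, with no test. The samples were 2 lines of immortal mouse embryonic fibroblasts (MEF), both hybrids of the mouse strains C57BL/6N, called B6 below, and PWK/PhJ, called PWK. In the line B6-Xi, whose strain label puts PWK/PhJ first, the B6 copy of the X chromosome is the inactive one (Xi). In the line PWK-Xi, whose label puts C57BL/6N first, it is the PWK copy. Whether a line is a single clone and how it was made immortal are not stated in the labels. Polyadenylated RNA was sequenced after Smart-seq2 library preparation, 1 library per line. No value below has a replicate or an error, and the strain of the Xi, the direction of the cross and any other difference between the lines cannot be told apart.

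S100 proteins are small proteins that bind calcium through paired EF hands, usually as dimers. Calcium opens a surface on them that binds target proteins, among them annexins and myosin heavy chains. Most of their genes lie in a cluster beside genes of the skin barrier, on mouse chromosome 3. In fibroblasts they are known from work on cell movement and on membrane traffic, and S100a4 is also called fibroblast-specific protein.

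All levels are FPKM, fragments relative to transcript length and to the size of the library, deposited separately for the B6 and the PWK allele; a gene's level is the sum of both. All 9 genes lie on chromosome 3. Between the lines a gene was compared as log2((PWK-Xi + 1)/(B6-Xi + 1)), which understates the change of low genes, where it reached 5 FPKM in at least 1 line. The level of its B6 allele divided by that of both alleles is its B6 share. Read depth is unknown, and values of exactly 0 occur for genes that all cells use, so a gene is only said to be listed at 0. The libraries were not alike: B6-Xi had 10127 genes above 0 and PWK-Xi 12907. B6 shares that were simple fractions (denominators up to 10) were also more common in B6-Xi, 47.1% of 8100 genes against 12.8% of 9040. The part of this unlikeness in the levels and folds below was not tested. Of 14 fibroblast markers, 12 reached 5 FPKM in at least 1 line, with summed levels of 963.1 FPKM (B6-Xi) and 1024 FPKM (PWK-Xi); Vim was listed at 0 in both lines and Lum in B6-Xi. These near-equal sums hold markers that differed both ways. Of the 11 with a value above 0 in each line, 2 were at least 2-fold lower in PWK-Xi. These were Sparc (579.5 and 252.4 FPKM) and Col3a1 (6.04 and 2.21 FPKM), which reached 5 FPKM only in B6-Xi, where it was higher. Another 4 were at least 2-fold higher (Dcn, 79.1 and 456.4 FPKM, Pdgfra, Pdgfrb and Prrx1). Over all 5241 genes at 5 FPKM in at least 1 line and above 0 in both, 5.95% were lower and 14.1% higher. The part of these markers in the S100 values was not tested. Epithelial markers summed to 0 and 1.29 FPKM, immune markers to 3.27 and 6.14 FPKM, endothelial markers to 0.135 and 0.241 FPKM and muscle markers to 0 and 0.0102 FPKM. Glial, melanocyte and neural markers summed to 3.17 and 9.44 FPKM. Of the cartilage markers Sox9 had 19.3 and 3.85 FPKM and the other 3 were listed at 0; of the adipocyte markers Fabp4 had 108.3 and 54.9 FPKM, and Adipoq was listed at 0.

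The abundant genes among the 9 were S100a4, S100a6, S100a10 and S100a11, the 4 that passed 100 FPKM in each line; S100a1 passed it in the B6-Xi line alone, and the remaining 4 stayed below. Together the 9 genes had 21339 FPKM in the B6-Xi library and 7273 FPKM in the PWK-Xi library, which is 7.48% and 2.84% of the summed FPKM of all genes. The sum was 2.93-fold lower in PWK-Xi, and 1.68-fold lower with S100a4 left out. Of the 7 genes that reached 5 FPKM in at least 1 line, 5 were at least 2-fold lower in PWK-Xi (S100a1, S100a3, S100a4, S100a10 and S100a13) and 0 were at least 2-fold higher. Over all 5490 genes at that level 5.83% were at least 2-fold lower and 17.8% at least 2-fold higher; over the 5241 of them above 0 in both lines, as all 7 S100 genes were, it was 5.95% and 14.1%. Of the 5 lower genes, S100a3 reached 5 FPKM in B6-Xi alone (7.78 FPKM, beside 1.575 FPKM in PWK-Xi). It thus entered the count only through the line where it was higher. The median log2 difference was -1.17 for the 7 genes and 0.23 for all 5490. Genes with a mean of at least 100 FPKM were lower more often, 10.9% of 368, with a median of -0.19. On the PWK allele alone 3 of the 7 genes were at least 2-fold lower. Without the 4 genes whose annotation overlaps another gene (S100a1, S100a3, S100a4 and S100a13), 1 of the 3 left, S100a10, was.

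**Figure D1:**
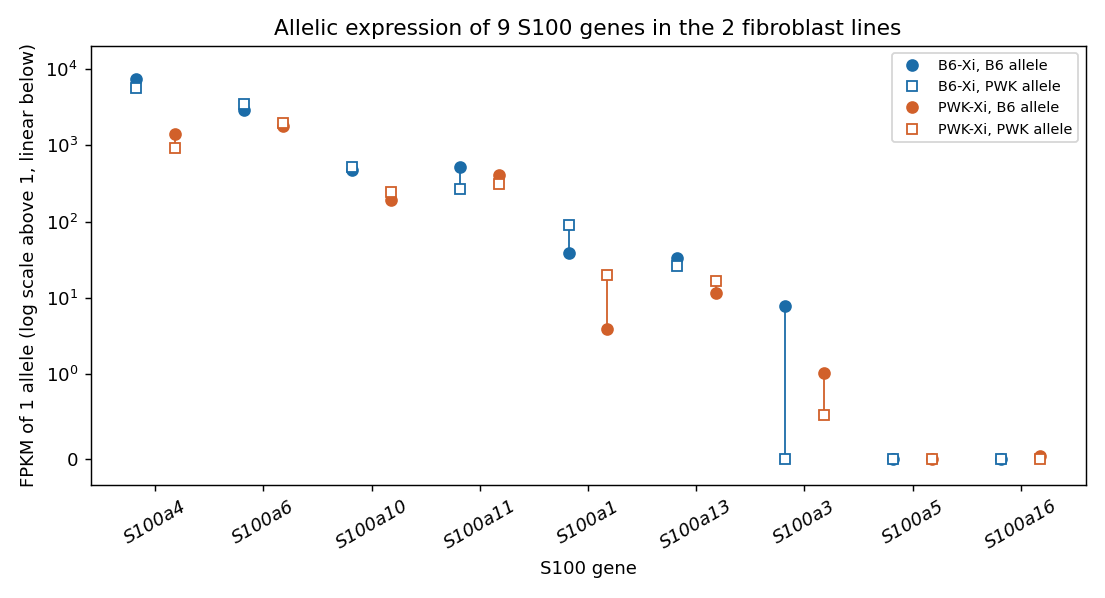
FPKM of the B6 allele (filled circles) and the PWK allele (open squares) of the 9 S100 genes in B6-Xi (blue) and PWK-Xi (orange), on an axis that is logarithmic above 1 FPKM and linear below; a line joins the alleles of 1 library. S100a4 and S100a6 lie highest in both lines, and for 5 genes both alleles in B6-Xi lie above both alleles in PWK-Xi.

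S100a4 codes for a protein that binds the heavy chain of non-muscle myosin and is known for promoting cell movement. In the B6-Xi line its B6 allele had 7315 FPKM and its PWK allele 5691 FPKM. In PWK-Xi the same alleles had 1393 FPKM and 927.9 FPKM. The gene was thus the most abundant of the table in B6-Xi (rank 1, 4.56% of all FPKM) and held rank 6 in PWK-Xi (0.906%). Its summed level was 5.60-fold lower in PWK-Xi (log2 difference -2.49). The difference was 5.25-fold on the B6 allele and 6.13-fold on the PWK allele, so both copies were lower to a like degree. Of the 368 genes with a mean of at least 100 FPKM, 3 had a lower log2 difference. GENCODE also lists Gm42674, a gene overlapping S100a4 on the same chromosome, with a transcript that shares 302 bases with it at 100% identity, and its reads could not be separated.

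S100a6, also called calcyclin, is the next gene of the family in level. Its alleles had 2873 FPKM (B6) and 3488 FPKM (PWK) in B6-Xi, and 1807 FPKM and 1937 FPKM in PWK-Xi. It held rank 3 in both lines, at 6361 and 3744 FPKM. The fold was 1.70, under the 2-fold used for the counts, and it was 1.59 on the B6 allele and 1.80 on the PWK allele. The order of S100a4 and S100a6 was therefore reversed between the lines. S100a4 stood at 2.04 times S100a6 in the B6-Xi library and at 0.62 times in the PWK-Xi library, a ratio that any rescaling of a whole library leaves as it is. Together they made 90.8% of the FPKM of the 9 genes in the former and 83.4% in the latter.

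The promoters of this pair are shown because the genes are near neighbours that changed places in level. Each sequence is 300 bases of RefSeq's GRCm38.p6, from 250 bases before the annotated start to 50 after it; the table held a promoter for 8 of the 9 genes. The expression files use the build mm9, and none of their values were placed by these coordinates. The S100a4 window is chr3:90603520-90603819 (plus strand) and the S100a6 window chr3:90612644-90612943 (plus strand). Capitals mark matches, on either strand, to the TATA box (TATAAA), the AP-1 site (TGAGTCA), the E-box (CACGTG) and the GC box (GGGCGG); where no letter is capital, none of these is in the window.
S100a4: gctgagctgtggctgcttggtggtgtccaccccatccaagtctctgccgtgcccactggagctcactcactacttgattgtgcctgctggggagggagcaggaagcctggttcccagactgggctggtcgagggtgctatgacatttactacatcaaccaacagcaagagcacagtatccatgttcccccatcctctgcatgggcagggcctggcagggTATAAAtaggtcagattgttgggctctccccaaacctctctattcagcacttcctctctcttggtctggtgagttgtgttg
S100a6: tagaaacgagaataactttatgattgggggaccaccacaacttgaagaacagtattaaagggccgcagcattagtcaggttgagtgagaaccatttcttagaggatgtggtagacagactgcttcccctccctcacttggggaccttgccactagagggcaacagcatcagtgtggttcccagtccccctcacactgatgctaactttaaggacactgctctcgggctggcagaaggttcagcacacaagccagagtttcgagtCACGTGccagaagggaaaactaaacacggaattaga
The S100a4 window holds TATAAA, starting 31 bases before the start, a motif present in 13.6% of all 32851 promoters of that table. The S100a6 window holds CACGTG, starting at base 15 after the start and present in 7.15% of them. These matches are letters only; binding was not measured.

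S100a1 and S100a13 lie head to head as the first genes of the cluster in the annotation's order, and in RefSeq their annotations overlap. Whether the libraries kept strand is not stated, so reads of the overlap could belong to either. S100a1, best known from heart and skeletal muscle, where it acts on calcium release, had 39.1 FPKM from B6 and 91.0 FPKM from PWK in B6-Xi. In PWK-Xi it had 3.94 FPKM and 19.9 FPKM. Its summed level went from 130.1 FPKM at rank 279 to 23.9 FPKM at rank 1528, 5.45-fold lower in PWK-Xi (log2 difference -2.40). The B6 allele was 9.94-fold lower and the PWK allele 4.56-fold lower. S100a13, a protein known for the release of Fgf1 from cells without a secretion signal, had 33.2 FPKM from B6 and 26.3 FPKM from PWK in B6-Xi, and 11.4 and 16.5 FPKM in PWK-Xi. It was 2.13-fold lower in PWK-Xi (log2 difference -1.06), and with both libraries rescaled to the same summed FPKM the log2 difference was -0.93, within 2-fold. Its B6 allele was 2.90-fold lower and its PWK allele 1.59-fold. S100a1 was at 2.19 times S100a13 in the B6-Xi line and at 0.853 times in the PWK-Xi line. The listed order in PWK-Xi rests on a small gap (23.9 and 28.0 FPKM) in 1 library. With reads of the overlap not assigned, a change of order cannot be judged.

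Their promoter windows are shown because they are largely the same DNA read in opposite directions, with 204 bases in common. The S100a1 window is chr3:90514281-90514580 (minus strand) and the S100a13 window chr3:90514185-90514484 (plus strand), both in GRCm38.p6.
S100a1: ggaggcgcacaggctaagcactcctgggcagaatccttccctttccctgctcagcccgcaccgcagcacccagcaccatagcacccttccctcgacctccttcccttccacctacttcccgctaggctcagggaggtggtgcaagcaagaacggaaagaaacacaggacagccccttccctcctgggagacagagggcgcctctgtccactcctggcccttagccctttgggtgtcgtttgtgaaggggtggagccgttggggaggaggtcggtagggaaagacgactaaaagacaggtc
S100a13: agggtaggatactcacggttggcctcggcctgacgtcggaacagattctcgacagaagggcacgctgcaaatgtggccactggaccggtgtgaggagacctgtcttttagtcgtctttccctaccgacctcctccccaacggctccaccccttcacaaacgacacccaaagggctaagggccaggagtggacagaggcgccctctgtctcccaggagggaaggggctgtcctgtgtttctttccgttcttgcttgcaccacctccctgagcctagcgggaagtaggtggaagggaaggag
None of the 4 motifs searched is in either window, which says nothing about the factors that bind there.

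S100a10 and S100a11 lie apart from the rest of the cluster, side by side, with the genes of the skin barrier between them and the others. S100a10 differs from the other members in that it does not bind calcium; it forms a complex with annexin A2 at the plasma membrane. Its alleles had 473.0 FPKM (B6) and 512.4 FPKM (PWK) in B6-Xi and 193.7 FPKM and 243.0 FPKM in PWK-Xi. The sums were 985.4 and 436.7 FPKM, 2.26-fold lower in PWK-Xi, with 2.44-fold on the B6 allele and 2.11-fold on the PWK allele. S100a11, which binds annexin A1, was the most even member. It had 518.3 FPKM from B6 and 270.7 FPKM from PWK in B6-Xi, and 405.7 and 313.1 FPKM in PWK-Xi. Its sums of 789.0 and 718.8 FPKM differed 1.10-fold, its PWK allele was higher in PWK-Xi than in B6-Xi, and its log2 difference changed from -0.13 to 0.021 when both libraries were rescaled to the same summed FPKM. Rank 60 in B6-Xi became rank 52 in PWK-Xi. GENCODE lists 5 processed pseudogenes with at least 200 bases at 90% identity or more to S100a11, the closest being Gm12854 on chromosome 4 (297 bases at 99.0%). None of the 5 is named in the deposited tables, and their part in the S100a11 values was not tested.

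The promoter of S100a11 is printed as that of the member whose level was closest in the lines. Its window is chr3:93520246-93520545 (plus strand) in GRCm38.p6.
S100a11: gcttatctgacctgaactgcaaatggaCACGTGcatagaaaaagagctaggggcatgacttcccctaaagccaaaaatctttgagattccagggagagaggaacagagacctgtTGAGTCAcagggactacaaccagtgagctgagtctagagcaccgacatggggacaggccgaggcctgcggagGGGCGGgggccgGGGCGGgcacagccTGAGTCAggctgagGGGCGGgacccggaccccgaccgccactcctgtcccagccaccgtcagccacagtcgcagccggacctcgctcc
It holds 2 AP-1 sites, 3 GC boxes and 1 E-box. AP-1 sites of these letters occur in 5.20% of all promoters and GC boxes in 35.7%.

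The other 3 genes had listed values that were low or 0. Such values need not mean low expression, since Vim was also listed at 0 in both lines. S100a3, a gene of the hair cuticle, had 7.78 FPKM in B6-Xi, all from B6, and 1.58 FPKM in PWK-Xi, of which 1.05 FPKM came from B6 and 0.525 FPKM from PWK. It was 4.94-fold lower in PWK-Xi by its sum. Its PWK allele, however, was listed at 0 in B6-Xi, so the direction held for the B6 allele alone (log2 differences of -2.10 and 0.61). Its annotation overlaps S100a2 and Gm42674. S100a5, known from olfactory neurons, was listed at 0 in both lines. S100a16, which is expressed in many tissues, had 0.0381 FPKM in PWK-Xi and was at 0 in the other line. These last 2 genes did not reach 5 FPKM and entered no count of folds.

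Read allele by allele, the lower summed level in PWK-Xi was shared by both strains' copies. Summed over the 9 genes, the B6 alleles were 2.95-fold lower in PWK-Xi and the PWK alleles 2.92-fold. S100a4 made 60.9% of the B6-Xi sum and weighs most in these folds. The 2 alleles' folds were also close for S100a6 and S100a10, but less so for S100a1 (9.94 and 4.56) and S100a13 (2.90 and 1.59). For 5 of the 7 genes that reached 5 FPKM in at least 1 line, both alleles in B6-Xi were above both alleles in PWK-Xi. The same held for 14.8% of all 5490 genes. Alleles of 1 library are not replicates. The 2 exceptions were S100a3 and S100a11.

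The balance of the alleles was near even for the family as a whole and uneven for single members. Over the summed FPKM, the B6 alleles made 52.8% of the B6-Xi sum and 52.5% of the PWK-Xi sum. The median over the 7 genes with at least 1 FPKM was 55.9% and 48.3%, beside autosomal medians of 50.0% and 52.8% over 7825 and 8725 genes and chromosome 3 medians without S100 genes of 55.6% and 53.6%. In each line 3 of the 7 genes departed from the autosomal median by over 10 points, in B6-Xi S100a1, S100a3 and S100a11 and in PWK-Xi S100a1, S100a3 and S100a13. The same was true of 59.4% of the autosomal genes of B6-Xi and of 45.2% of those of PWK-Xi, so the members' counts are no higher than the background.

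S100a1 came mainly from PWK in both lines, with B6 shares of 30.1% (B6-Xi) and 16.5% (PWK-Xi). A share more than 10 points below the autosomal median in both lines was found in 7.7% of the 3829 autosomal genes that reached 5 FPKM in each line. S100a4 came more from B6 in both lines, at 56.2% and 60.0%. S100a6 lay at 45.2% and 48.3%, and S100a10 at 48.0% and 44.3%. The shares of these 3 abundant genes thus differed by less than 4 points between the lines, while their levels differed 1.70-fold to 5.60-fold. S100a11 had 65.7% and 56.4%. S100a13 had 55.9% and 40.9%, on opposite sides of an even balance, as 39.3% of those 3829 genes were. S100a3 had 100% and 66.7%. Within 0.001 points, the share was a simple fraction (denominators up to 10) for 47.1% of 8100 genes in B6-Xi and 12.8% of 9040 in PWK-Xi. S100a3 was such a gene in each line, with 2 to 1 in PWK-Xi. Fractions with larger denominators were those of S100a10 in B6-Xi (12 to 13) and S100a13 in PWK-Xi (9 to 13). The number of reads behind a share is unknown, and small differences between shares cannot be judged.

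**Figure D2:**
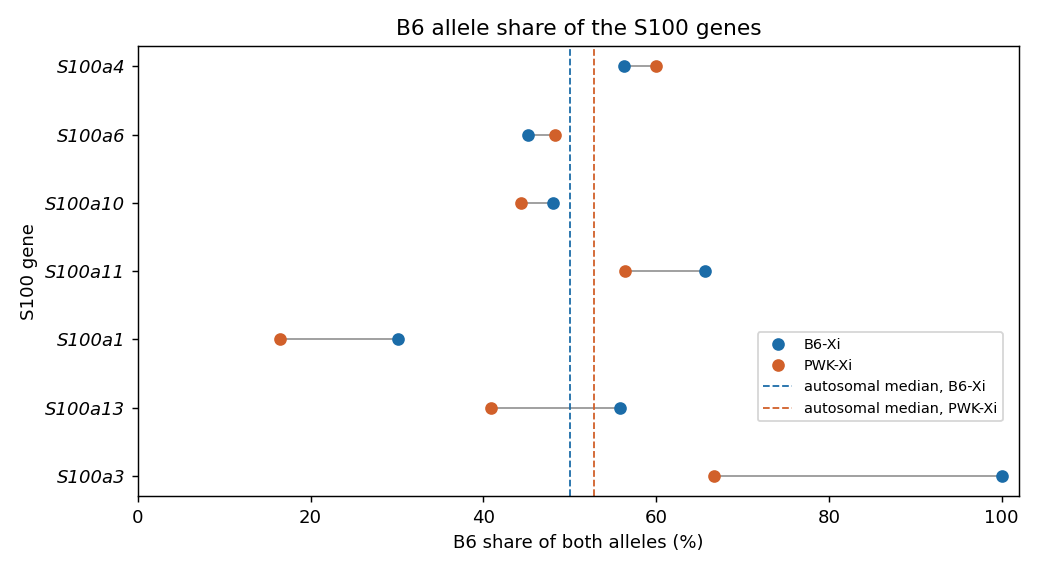
B6 share in percent (horizontal axis) of the 7 S100 genes that reached 1 FPKM in each line, for B6-Xi (blue) and PWK-Xi (orange); dashed lines are the autosomal medians of 50.0% and 52.8%. S100a1 lies far to the PWK side in both lines, S100a4, S100a6 and S100a10 move by less than 4 points, and S100a13 crosses the medians.

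The expressed genes flanking the family were within 2-fold or higher in PWK-Xi. Of the 5 genes expressed at 5 FPKM or more in each line before the first S100 gene on chromosome 3 (Slc39a1, Gatad2b, Ilf2, Snapin and Chtop) and the 5 after the last (Mrpl9, Snx27, Psmb4, Psmd4 and Vps72), 0 were at least 2-fold lower in PWK-Xi and 0 at least 2-fold higher. Their median log2 difference was 0.27. Chtop, the closest of them to S100a1, was 1.20-fold higher in PWK-Xi, at 13.2 FPKM. Among 10 such genes on each side, 0 were at least 2-fold lower and 6 at least 2-fold higher. Of the 267 other chromosome 3 genes that reached 5 FPKM in at least 1 line, 16 (5.99%) were at least 2-fold lower and 49 higher. Over all 5241 genes above 0 in both lines the shares were 5.95% and 14.1%. The flanking genes had to reach 5 FPKM in each line, which leaves out genes that fell below it in 1. A count of 0 lower among so few genes is near these shares. Of the 54 other genes between the first and the last S100 gene, 47 were listed at 0 in both lines. The only one with 5 FPKM, the late cornified envelope gene Lce1g, had 7.50 and 0.962 FPKM, all from B6.

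**Figure D3:**
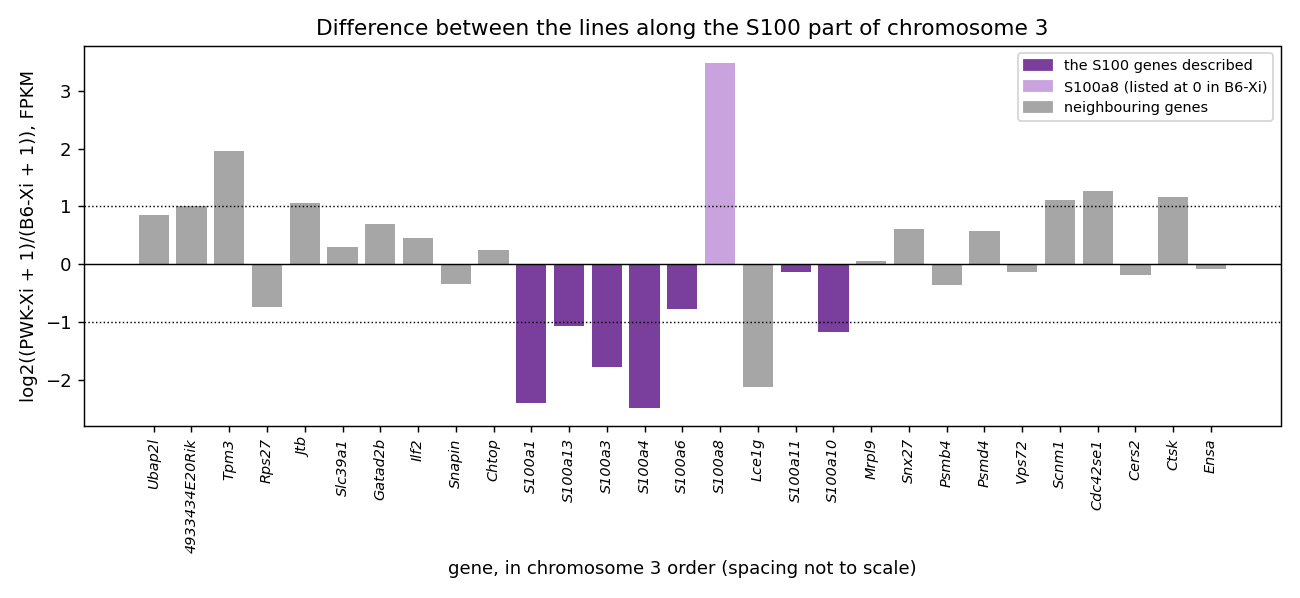
Log2((PWK-Xi + 1)/(B6-Xi + 1)) of summed FPKM (vertical axis) for the 7 measured S100 genes described here (dark purple), S100a8 (light purple, listed at 0 in B6-Xi) and neighbouring genes (grey) in chromosome 3 order; dotted lines mark 2-fold. The 7 dark bars, for genes at 5 FPKM in at least 1 line, point down. They run from -0.13 for S100a11 (0.021 with both libraries rescaled to the same summed FPKM) to -2.49 for S100a4. Of the 20 genes flanking the family, 0 reach 2-fold lower. Those 20 had to reach 5 FPKM in each line, a filter that S100a3 would not have passed.

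Of the 8 other S100 genes listed, 4 were at 0 in both lines: S100a2, S100a9, S100a14 and S100z. S100a8, a gene of neutrophils and monocytes, had 10.1 FPKM in PWK-Xi, 39.8% from B6, and was listed at 0 in the other line, so no direction is given for it. Its usual partner S100a9 was listed at 0 in both lines. S100g, on the X chromosome, had 3.85 FPKM in PWK-Xi and was listed at 0 in the other line. The 3.85 FPKM were all from the B6 allele, which is on the active X there. S100a7a stayed at 1.94 and 2.08 FPKM, and S100b was under 1 FPKM in both.

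Some genes of proteins that S100 proteins bind were lower in PWK-Xi too. Of 29 listed partner genes, 17 reached 5 FPKM in at least 1 line and 16 of these were above 0 in both. Of the 16, 4 were at least 2-fold lower and 1 at least 2-fold higher, with a median log2 difference of -0.24. Over all 5241 genes of that kind, 5.95% were lower and 14.1% higher by that measure. Among the 368 genes with a mean of at least 100 FPKM, 10.9% were lower. Whether the partners go with the S100 genes was not tested. Anxa2, the annexin bound by S100a10, had 696.6 FPKM in the B6-Xi line and 212.5 FPKM in the PWK-Xi line, 3.28-fold lower. Anxa1, the annexin bound by S100a11, had 554.2 and 156.1 FPKM, 3.55-fold lower, beside the 1.10-fold difference of S100a11. Ahnak, a giant scaffold protein that binds the complex of S100a10 and annexin A2, had 44.4 and 11.8 FPKM. The fourth, Anxa6, had 120.8 and 19.5 FPKM. The actin-capping gene Capzb had 59.9 FPKM in the B6-Xi line and was listed at 0 in the other, so no direction is given for it.

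Other partners were within 2-fold or low in both lines, apart from Mdm4. Cacybp, whose protein binds S100a6, had 64.9 and 75.0 FPKM. Myh9, the myosin heavy chain bound by S100a4, had 15.8 and 13.5 FPKM beside the 5.60-fold difference of S100a4. Anxa5 had 175.8 and 148.9 FPKM. Mdm4, a regulator of p53, was the gene at least 2-fold higher, with 5.03 and 11.4 FPKM. Anxa11 had 1.28 and 0.80 FPKM. Fgf1, the cargo of S100a13, had 0.0503 and 0.0243 FPKM, and the receptor gene Ager 0.133 and 0.148 FPKM.

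**Figure D4:**
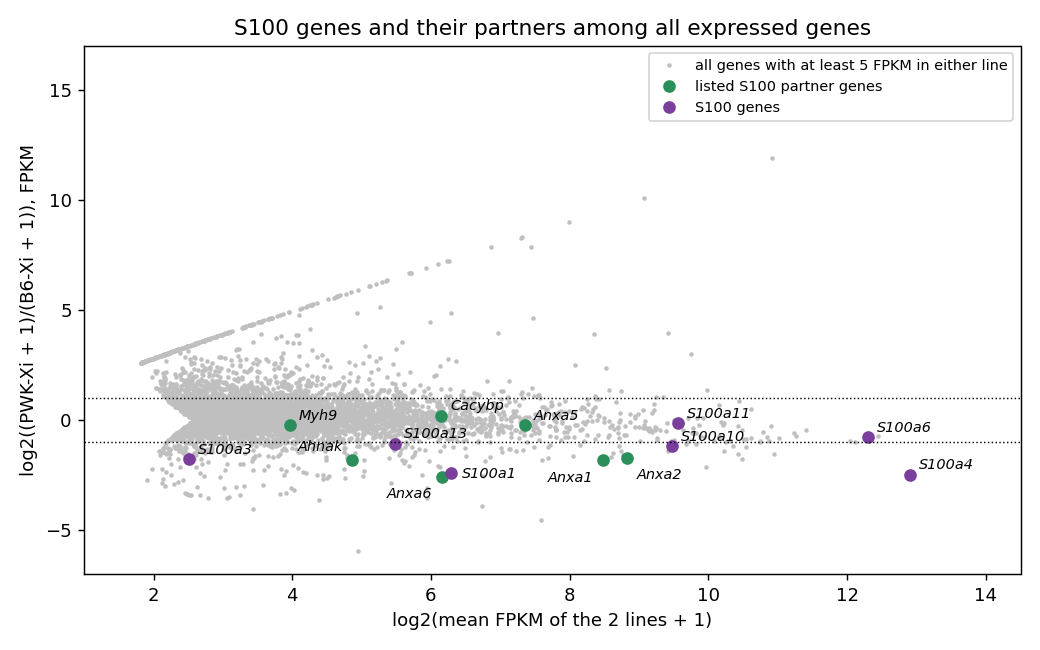
Log2((PWK-Xi + 1)/(B6-Xi + 1)) of summed FPKM (vertical axis) against log2(mean FPKM of the lines + 1) for the 5490 genes that reached 5 FPKM in at least 1 line (grey), 7 S100 genes (purple) and 7 genes of S100 partners (green); dotted lines mark 2-fold. S100a4 lies farthest right at -2.49, Anxa1, Anxa2, Anxa6 and Ahnak lie below the lower dotted line, and Cacybp, Anxa5, Myh9, S100a6 and S100a11 lie between the dotted lines.

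The genes whose pattern was most like that of the summed family were found over 4 values, the 2 alleles in the 2 lines, as the distance between log2(FPKM + 1) profiles after subtracting each profile's own mean. Among 1286 other autosomal genes expressed at 20 FPKM or more in each line, the closest was the chaperone gene Hsp90ab1 (distance 0.038; 665.8 and 222.9 FPKM). It was followed by the tropomyosin gene Tpm1 (0.15; 398.1 and 129.0 FPKM), Anxa2 (0.21), the caveolar coat gene Ptrf (0.23; 79.8 and 24.1 FPKM) and the nuclear lamina gene Lmna (0.24; 173.8 and 54.2 FPKM). The sum is mostly S100a4 and S100a6, and 4 values from 2 libraries give a likeness only as a description.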

How the data were processed

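RNA-seq of 2 libraries, 1 per line, was used, and each library's group was taken from its title. The authors deposited FPKM values per gene with 1 column for each allele, per the file headers. Per the submitters' processing notes, the build was mm9 and the tools included StringTie 2.1.1, HISAT2 2.2.0 and Trim Galore 0.6.4; how alleles were told apart is not given in the sources. FPKM are not counts, so depth is unknown and no interval was given. With 1 library per group no test was run.

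Alleles were summed, a pseudocount of 1 FPKM was used for log2 differences and none for folds and shares. Filters were 5 FPKM in either line for differences and 1 FPKM for shares. Symbols were matched to GENCODE M21 and RefSeq (83 of 22711 unmatched) for chromosome and gene order. Transcript copies were searched with BLAST+ 2.17.0 megablast (at least 200 bases, 90% identity). The other software was pandas 2.3.3, numpy 2.4.6, matplotlib 3.10.9 and Python 3.11.15, and the computations were tested on simulated data.

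The members, gene lists, tests and thresholds were chosen with earlier results of these data known. Named were the 9 genes, other S100 genes of at least 1 FPKM, partners at least 2-fold different or in a fixed set of 10, the 5 nearest expressed neighbours on each side, expressed genes in between, and the 5 most similar genes. Names outside this rule, and the wider count of 10 neighbours on each side, were chosen after values were seen.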

Additional observations from a re-analysis of the deposited data

Results flagged for a closer look

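S100a13 leaned to opposite strains in the 2 lines, with B6 shares of 55.9% (B6-Xi) and 40.9% (PWK-Xi). The difference was not tested, since each line has 1 library. In PWK-Xi its alleles stood at 9 to 13, and the number of reads behind them is unknown. Alleles on opposite sides of 50% were found for 39.3% of the 3829 autosomal genes that reached 5 FPKM in each line. In RefSeq the annotation of S100a13 overlaps that of S100a1, whose shares were 30.1% and 16.5%, and the part of S100a1 reads in the S100a13 values was not tested.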

How the results depend on the processing

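No paired analysis was possible because the groups share only 1 replicate number, and no library could be left out. A log2 value was taken as kept where it stayed on its side of 2-fold and, if past 2-fold, kept its sign, a share where it moved by at most 5 points, and a count where it moved by at most 1.5 times. Of 55 alternatives for the 10 summary results, 43 kept the result. Some of these could not move it. A filter of 1 FPKM for differences left the same 7 genes. So did a filter of 5 FPKM, or of any value above 0, for shares in B6-Xi. The tally is therefore no measure of robustness. Rescaling both libraries to the same summed FPKM adds 0.16 to every log2 difference of an abundant gene; it left 4 of 7 genes at least 2-fold lower and a median of -1.02. With all S100 family genes, 1 gene (S100a8, listed at 0 in B6-Xi) passed 2-fold upward. On the PWK allele alone 3 genes were at least 2-fold lower and the median was -0.85; S100a3 then stood at 0.61, and S100a13 at -0.64. Without the genes whose annotation overlaps another, 1 gene was lower, the median was -0.76, the median B6 share in B6-Xi was 48.0%, and the genes over 10 points from the autosomal median numbered 1 (B6-Xi) and 0 (PWK-Xi); fewer genes remain by construction. Over 20 points away there was 1 gene in each line. Without S100a4, the pooled B6 share in B6-Xi was 47.3% and the log2 ratio of the sums went from -1.55 to -0.75. Rescaled on all genes other than the 9, an alternative chosen after seeing the data, that ratio was -1.47. Of 42 alternatives for single genes, 39 kept the value by that rule, among them 2 in which S100a11, within 2-fold throughout, turned from -0.13 to 0.021 (rescaled) and 0.21 (PWK allele alone); S100a13 was also within 2-fold after rescaling (-0.93).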

Other observations

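Of 28 other calcium sensor genes with EF hands, 18 reached 5 FPKM in at least 1 line and 17 of these were above 0 in both. Of the 17, 0 were at least 2-fold lower and 1 at least 2-fold higher in PWK-Xi, with a median log2 difference of -0.27, beside 5.95% and 14.1% of all 5241 such genes; counts this small are near that background. Calm2, a calmodulin gene, had 169.2 FPKM in the B6-Xi line and 206.4 FPKM in the other. The higher gene was Rcn2, a calcium-binding protein gene of the endoplasmic reticulum, with 18.9 and 39.3 FPKM. Chp1 had 34.6 FPKM in PWK-Xi and was listed at 0 in the other line, so no direction is given for it. Calm2, Rcn2 and Chp1 were named after their values were seen.

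Of 8 listed genes of receptors for S100 proteins, 3 reached 5 FPKM in at least 1 line, and these 3 lay within 2-fold. Bsg had 124.3 and 164.5 FPKM, Sdc4 14.9 and 16.8 FPKM, and Egfr 5.95 and 11.8 FPKM. Genes of the fused S100 type, large proteins of the skin barrier with an S100 domain, stayed under 1 FPKM: the highest of 6 listed, Tchh, had 0.147 and 0.857 FPKM.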
